A study of Mus musculus with 4 samples.

Results

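The MS4A family of membrane proteins was followed through 8 listed symbols, Ms4a4a, Ms4a4c, Ms4a4d, Ms4a6b, Ms4a6c, Ms4a6d, Ms4a7 and Ms4a8a, out of 23259 symbols with a value. They were chosen by symbol with the measured FPKM of these same 4 libraries, and the differences between the labels, in view. The differences between labels are therefore given for the 8 as a description, without p-values. Symbols were matched as written, and 7 of the 8 were found. Ms4a4a is not analysed here. Of the 7, 5 reached a mean of 1 FPKM over the libraries and entered the test across all genes, while Ms4a4d and Ms4a8a did not. FPKM counts fragments per kilobase of transcript, scaled to the size of the library, so levels of different genes can be set side by side.

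The MS4A genes encode small membrane proteins that cross the membrane 4 times and keep both ends inside the cell. The family is best known from CD20 of B cells, encoded by Ms4a1, and from the beta chain of the high-affinity IgE receptor of mast cells, encoded by Ms4a2. Several other members are found in monocytes and macrophages, where they sit beside receptors such as dectin-1 and TREM2 and affect their signalling or shedding. In the mouse the genes lie side by side on chromosome 19 and several are recent copies of each other.

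RNA came from macrophages grown from the bone marrow of C57BL/6 mice aged 7 weeks and kept with IL-4 for 24 hours in both groups. IL-4 is a cytokine that drives alternative activation. By genotype label, 2 samples are wild type and 2 are Sema6D-/-, which names the loss of a membrane semaphorin. No culture without IL-4 was analysed, and nothing in the labels ties the libraries of a group to separate animals or dishes. The spread between them, and each p-value built on it, may therefore be technical. Sample titles carry the letter W for Sema6D-/- and K for wild type. Each direction below follows the genotype label, and an exchange of labels would reverse it.

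The smallest values put the depth of the wild type libraries near 9000000 and 9400000 fragments, and that of the Sema6D-/- libraries near 8400000 and 8700000. Sema6d itself was listed at 0.166 and 0.389 FPKM under wild type and at 0.106 and 0.315 under Sema6D-/-, so its level overlapped between the labels and does not check them. Macrophage markers were present, with a summed level over 8 genes of 5888 and 5599 FPKM under wild type and 5269 and 5302 under Sema6D-/-. Of these 8, Itgam, Cd14 and Lyz2 passed as lower and Emr1 as higher. Of the B cell genes, Pax5 was listed at 0 in all 4 libraries, Cd79a in 2 and Ms4a1 in 3, and Cd79b was at 0.214 to 0.889 FPKM. T or NK cell markers were near 0 (5 genes, summed level 0.202 to 0.444 FPKM). The 8 markers of neutrophils and granulocyte progenitors summed to 196 and 187 FPKM under wild type and to 730 and 591 under Sema6D-/-, and 5 of the 7 tested passed as higher. Of all genes tested, 4.91% passed as lower and 4.8% as higher. Mpo, which passed, was at 1.08 and 0.757 FPKM under wild type and 2.73 and 2.68 under Sema6D-/-. Elane, which did not pass, was at 0.565 and 0.276 FPKM against 2.16 and 1.34. Both reached the filter of 1 FPKM only through the Sema6D-/- libraries. Ms4a3 is itself among these granulocyte markers. The 5 mast cell or basophil markers, Ms4a2 among them, summed to 2.07 and 1.56 FPKM under wild type and 4.55 and 3.85 under Sema6D-/-. Only Mcpt8 of these was tested, and it passed as higher. Mcpt8 was at 0.319 and 0.156 FPKM under wild type and at 2.095 and 2.022 under Sema6D-/-. It therefore reached the filter of 1 FPKM only through the Sema6D-/- libraries. Untested Gata2 went the other way without overlap, at 1.094 and 1.004 FPKM under wild type and 0.689 and 0.664 under Sema6D-/-. Untested Cpa3 was higher without overlap, at 0.404 and 0.395 FPKM against 1.767 and 0.767. Of 5 dendritic cell markers, 2 were tested, Itgax passed as lower and Ccr7 did not pass, and Flt3, Zbtb46 and Xcr1 were under 1 FPKM. Untested Zbtb46 was lower without overlap, at 0.696 and 0.913 FPKM under wild type and 0.251 and 0.367 under Sema6D-/-. Untested Xcr1 was too, at 0.355 and 0.417 FPKM against 0.0777 and 0.0750. Flt3 was at or near 0 in all libraries. The dendritic list summed to 404 and 410 FPKM under wild type and 306 and 321 under Sema6D-/-, nearly all of it Itgax. In bulk RNA, fewer cells of a type and less RNA per cell cannot be told apart.

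The similarity of the copies bears on how far each level can be trusted, so a stretch of coding sequence is shown for each of the 2 subgroups. The sequences are from GENCODE M21 transcripts on GRCm38, written 5′ to 3′, with bases numbered from the start codon. Bases 100 to 180 of the Ms4a6 copies are given first, and capitals mark bases that differ from Ms4a6d.
Ms4a6d: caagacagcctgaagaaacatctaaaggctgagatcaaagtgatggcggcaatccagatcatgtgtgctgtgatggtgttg
Ms4a6b: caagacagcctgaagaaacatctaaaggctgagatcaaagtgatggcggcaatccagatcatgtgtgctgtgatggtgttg
Ms4a6c: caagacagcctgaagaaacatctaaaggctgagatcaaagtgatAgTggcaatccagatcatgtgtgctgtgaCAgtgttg
Ms4a6b has 0 differences from Ms4a6d over these 81 bases and Ms4a6c has 4. A read from inside this stretch cannot be assigned to Ms4a6b or Ms4a6d.

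The first 120 coding bases of the Ms4a4 copies follow, with capitals for bases that differ from Ms4a4c.
Ms4a4c: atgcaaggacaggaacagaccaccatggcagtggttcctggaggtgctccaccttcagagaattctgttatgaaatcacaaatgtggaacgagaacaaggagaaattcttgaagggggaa
Ms4a4b: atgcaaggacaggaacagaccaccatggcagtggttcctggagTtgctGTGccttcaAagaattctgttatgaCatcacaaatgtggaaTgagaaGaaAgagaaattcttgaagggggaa
Ms4a4d: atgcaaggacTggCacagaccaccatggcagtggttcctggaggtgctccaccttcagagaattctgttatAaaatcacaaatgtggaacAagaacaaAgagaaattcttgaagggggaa
Ms4a4b differs at 9 of these bases and Ms4a4d at 5.

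Over the whole coding sequence, Ms4a4c had 91.7% identical bases with Ms4a4b and 87.9% with Ms4a4d. Ms4a6b had 86.4% with Ms4a6c and 81.8% with Ms4a6d. Ms4a4a, placed by name with the Ms4a4 copies, had 68.8% with Ms4a4c, a value near that of the more distant pairs. Shared stretches were short all the same. Of the 50-base words of the Ms4a4c transcript, 8.48% also occurred in the transcript of another of these copies, against 6.08% for Ms4a6c, 5.66% for Ms4a6b, 2.92% for Ms4a6d, 0.546% for Ms4a4d and 0 of 1527 words for Ms4a7. How the authors' counting divided reads that fit several copies is not given in the sources used here, so the levels of Ms4a4c, Ms4a6b, Ms4a6c and Ms4a6d are uncertain to that extent.

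**Figure D1:**
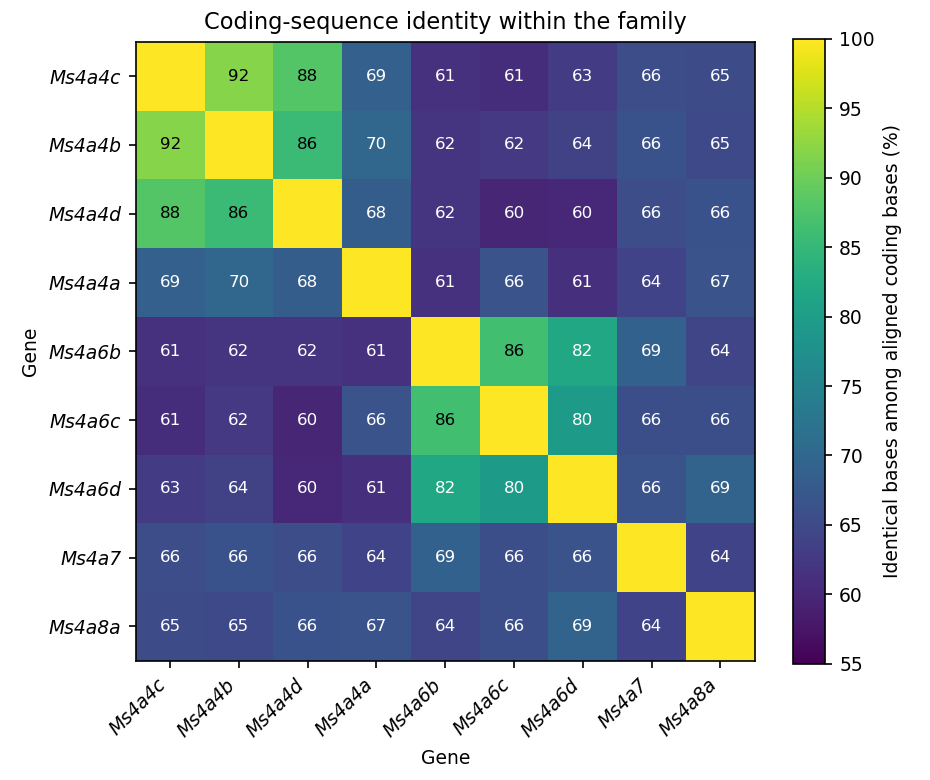
Each cell gives the percentage of identical bases among aligned coding bases for 2 genes, from GENCODE M21 transcripts, including Ms4a4b, which is not one of the 8. Ms4a4c, Ms4a4b and Ms4a4d form a block at 85.6% to 91.7%, and Ms4a6b, Ms4a6c and Ms4a6d form another at 79.6% to 86.4%.

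A second limit touches Ms4a6c. A non-coding gene on the opposite strand, BE692007 (chromosome 19, 11470166 to 11484578 in GRCm38), covers 12027 bases of it, and 55.4% of the 50-base words of the Ms4a6c transcript recur in BE692007 transcripts. The library kit keeps strand, but the strand setting of the counting is not given, so reads of the pair cannot be told apart here.

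The labels separated most clearly at Ms4a4c, a copy of Ms4a4b, which is known from T cells. Ms4a4c (chromosome 19, 11404770 to 11427246, forward strand, 7 exons) was at 13.1 and 14.6 FPKM in the libraries labelled wild type. It was at 1.31 and 1.82 FPKM in those labelled Sema6D-/-. Both Sema6D-/- libraries lay below both wild type libraries. The mean was 8.85-fold lower, 13.8 ± 1.1 against 1.56 ± 0.36 FPKM (SD, n = 2 per label). At the estimated depth the values stand for about 204 and 235 fragments against 19 and 27, so counting error is largest under the label Sema6D-/-. On the log2(FPKM + 1) scale the difference was -2.54 ± 0.13 (SE). That scale understates the change of a low gene, and with 0.1 in place of 1 added the difference was -3.08.

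Ms4a6b, a member also studied in T cells, came next. Ms4a6b (11516512 to 11531256, forward strand) was at 24.8 and 23.3 FPKM under wild type and at 6.54 and 9.04 under Sema6D-/-. Again the labels did not overlap, and the mean was 3.09-fold lower (difference -1.52 ± 0.14, SE). Its closest copy, Ms4a6c (11469366 to 11482192, forward strand), was at 89.2 and 82.5 FPKM under wild type and 45.4 and 49.1 under Sema6D-/-. Here the mean was 1.82-fold lower (difference -0.85 ± 0.06, SE), and the libraries of the labels stood well apart. Between the copies, Ms4a6b had the larger difference in the log2 scale and Ms4a6c the higher level in FPKM.

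Ms4a6d encodes a myeloid surface protein that was reported as a partner of the complement receptor VSIG4. Ms4a6d (11586604 to 11604849, reverse strand) was at 234 and 230 FPKM under wild type (229.7 in the second library) and at 190 and 196 under Sema6D-/- (189.6 in the first). The labels did not overlap, yet the step was small, 1.2-fold lower in the mean (difference -0.26 ± 0.04, SE). Vsig4 was near 0 in these cells, at 0.0867 to 0.629 FPKM.

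Ms4a7, a marker of macrophages that include those at the borders of the brain, was the most abundant of the measured members. Ms4a7 (11321039 to 11336146, reverse strand) was at 628 and 641 FPKM under wild type and 682 and 607 under Sema6D-/-. The 2 Sema6D-/- values enclosed both wild type values, so the labels overlapped. The difference was 0.02 ± 0.07 (SE), and its sign turned after quantile normalization (-0.09) or without Sema6D-/- replicate 1 (-0.06).

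The remaining measured members were at or near 0. Ms4a8a, described in alternatively activated and tumour-associated macrophages, was listed at 0.115, 0, 0 and 0.121 FPKM in wild type replicates 1 and 2 and Sema6D-/- replicates 1 and 2. Each value above 0 equals about 1 fragment. Ms4a4d was listed at 0 in all 4 libraries, although its coding sequence is close to that of Ms4a4c. A 0 in these files can also be a failed estimate, so it is only said to be listed at 0.

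**Figure D2:**
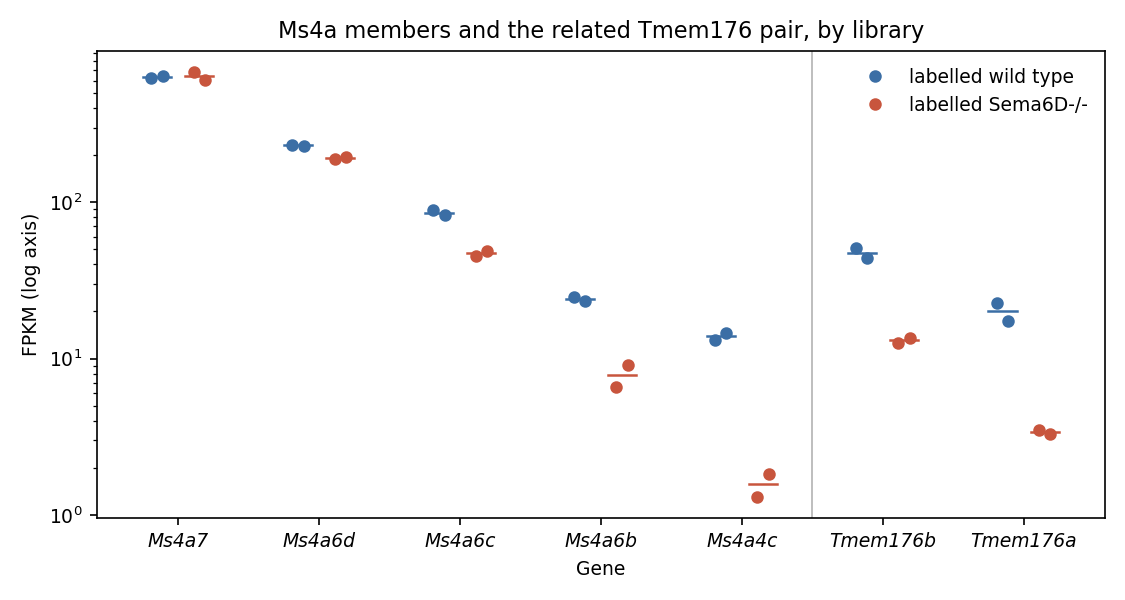
FPKM on a log axis for the 5 tested Ms4a members and, right of the line, the related Tmem176 pair. Points are single libraries, short lines are means of the 2 libraries of a label, and genes at or near 0 (Ms4a4d, Ms4a8a) are left out. The libraries of both labels mix at Ms4a7 and lie farther apart towards Ms4a4c.

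Set together, 4 of the 5 tested members passed the threshold as lower (limma, adjusted p under 0.05 over all 10115 genes tested) and 0 as higher. Of all genes tested, 4.91% passed as lower, 4.8% as higher and 9.72% in either direction. Nothing is read from the 4, since the members were chosen with this contrast known. Of all genes, 27.4% had both Sema6D-/- libraries under both wild type libraries, as 4 of the 5 members had, and 28.8% had both above, as 0 members had. The median difference of the 5 was -0.85 and that of all tested genes 0.00287. Ms4a6d dropped out of the 4 when any 1 library was left out, and no member passed without the filter on low values.

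The order of the levels was the same in each of the 4 libraries: Ms4a7, Ms4a6d, Ms4a6c, Ms4a6b, Ms4a4c, and then the genes at or near 0. Within a label, no library of 1 of these 5 genes overlapped a library of the next, and only Ms4a8a and Ms4a4d could not be ordered. The summed level of the members was 989 and 991 FPKM under wild type and 925 and 863 under Sema6D-/-. Ms4a7 made up 63.5% and 64.7% of that sum under wild type and 73.7% and 70.3% under Sema6D-/-. Ms4a4c made up 1.32% and 1.47% under wild type and 0.141% and 0.211% under Sema6D-/-. The members at the highest levels, Ms4a7 and Ms4a6d, were those with the smallest differences.

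By position, the members with the larger differences were neighbours. The Ms4a cluster spans 679 kb of chromosome 19 in GRCm38 (10962293 to 11640851), and 5 of the 8 members are on its forward strand and 3 on its reverse strand. Ms4a4c, Ms4a6c and Ms4a6b follow each other on the forward strand. Ms4a4b lies between Ms4a4c and Ms4a6c, and the gene Gm8369, near 0 in all libraries, between Ms4a6c and Ms4a6b. Ms4a7 and Ms4a6d, with the smaller differences, lie on the reverse strand on either side of that run. Ms4a4d, listed at 0, lies past the run on the forward strand, between Ms4a6b and Ms4a6d. The non-coding gene AW112010, not a member, lies in the cluster outside the run, on the reverse strand, with a difference of -0.73. Whether strand or position goes with the size of the difference was not tested, since only 5 members have one.

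**Figure D3:**
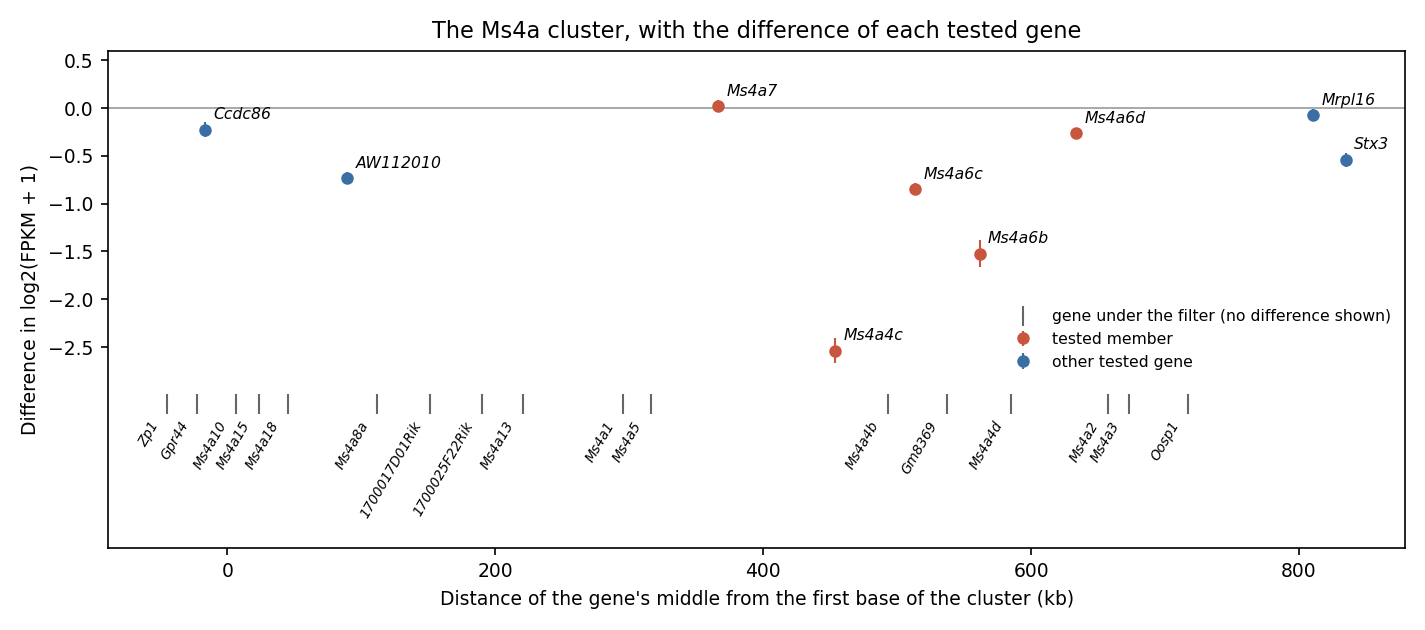
The x axis is the distance in kb of each gene's middle from the first base of the Ms4a cluster, and the y axis is the difference in log2(FPKM + 1), Sema6D-/- minus wild type, with SE bars where they exceed the point. Ticks at the bottom are genes under the filter. The 3 members with the lowest values, Ms4a4c (-2.54), Ms4a6b (-1.52) and Ms4a6c (-0.85), sit between Ms4a7 and Ms4a6d.

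The promoters of the copies are shown because Ms4a6b and Ms4a6c differed in the same direction and their upstream sequences are related. The sequences are from RefSeq (GRCm38.p6, forward strand), lie before a RefSeq start and are cut where an annotated exon begins inside the window. Those of Ms4a4c and Ms4a6b lie inside the GENCODE genes, which begin farther upstream, at 11404770 and 11516512. Capitals mark matches to GAAANNGAA, a short form of the motif that interferon regulatory factors read, and to GAGGAA, the core of sites of the myeloid factor PU.1. The windows are chr19:11469118-11469365 for Ms4a6c, chr19:11518309-11518452 for Ms4a6b, chr19:11407411-11407660 for Ms4a4c and chr19:11443308-11443552 for Ms4a4b.
Ms4a6c: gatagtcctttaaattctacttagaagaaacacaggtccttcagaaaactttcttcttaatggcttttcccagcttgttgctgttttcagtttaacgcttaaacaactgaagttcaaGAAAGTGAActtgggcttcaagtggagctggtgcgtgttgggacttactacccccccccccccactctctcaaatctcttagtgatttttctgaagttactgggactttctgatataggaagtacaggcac
Ms4a6b: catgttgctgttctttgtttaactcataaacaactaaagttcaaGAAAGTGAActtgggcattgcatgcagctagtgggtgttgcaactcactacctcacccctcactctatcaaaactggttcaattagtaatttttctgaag
Ms4a4c: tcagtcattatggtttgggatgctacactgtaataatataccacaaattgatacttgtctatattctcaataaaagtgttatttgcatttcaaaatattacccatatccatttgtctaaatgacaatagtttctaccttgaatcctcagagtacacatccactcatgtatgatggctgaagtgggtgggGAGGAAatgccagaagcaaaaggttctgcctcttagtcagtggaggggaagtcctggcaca
Ms4a4b: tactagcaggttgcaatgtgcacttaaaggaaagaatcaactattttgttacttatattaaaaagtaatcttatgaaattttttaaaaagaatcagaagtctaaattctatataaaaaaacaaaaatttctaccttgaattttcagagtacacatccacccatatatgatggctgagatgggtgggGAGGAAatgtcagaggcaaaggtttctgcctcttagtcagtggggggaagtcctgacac
The Ms4a6c and Ms4a6b stretches had 81.9% identical bases over 138 aligned bases, and those of Ms4a4c and Ms4a4b had 78.8% over 231.

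Motifs were counted on both strands in windows from 250 bases before to 50 after each start. RefSeq held 8 such windows for 7 of the 8 members, and none for Ms4a6d. GAAANNGAA, chosen after these sequences were seen, was in 4 of the 8, 1 each for Ms4a6b and Ms4a6c and both windows of Ms4a7, against 8.56% of 32851 windows of all genes. It began at base -133 from the start in Ms4a6c and at base -206 in Ms4a6b, in stretches that are copies of each other. The longer core of the interferon-stimulated response element, which is GAAANNGAA with a further A, contains it and was in 0 of the 8 (3.44% of all windows). GAGGAA was in 2 of 8, for Ms4a4c and Ms4a7 (28.3% of all). The STAT6 site form, TTC and GAA with 4 bases of any kind between them, was also in 2, for Ms4a6b and Ms4a7 (6.95%), and the interferon-gamma activated site, TTCNNNGAA, in 0 (8.3%). The GAAANNGAA match was thus found both at Ms4a7, whose labels overlapped, and at Ms4a6c and Ms4a6b, whose labels did not. A match is a run of letters and not a measured binding site.

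Genes of the family outside the list were mostly near 0. Of the 9 other Ms4a symbols in the files, 5 (Ms4a5, Ms4a10, Ms4a13, Ms4a15 and Ms4a18) were listed at 0 in all 4 libraries. Ms4a1 was listed at 0 in 3 libraries and at 0.0595 FPKM in the other. Ms4a2 was at 0.125, 0, 0 and 0.397 FPKM in wild type replicates 1 and 2 and Sema6D-/- replicates 1 and 2. Ms4a3, known from granulocyte and monocyte progenitors, was at 0.125, 0.367, 0.547 and 0.264 FPKM in the same order. Neither separated the labels. Ms4a4b, the near copy of Ms4a4c, was at 0.479 and 0.562 FPKM under wild type and at 0.210 and 0.404 under Sema6D-/-, or about 8 to 25 fragments. Its labels did not overlap, but its mean was under 1 FPKM, so it did not enter the test.

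The related genes Tmem176a and Tmem176b encode 4-span proteins that act as ion channels in myeloid cells, and both fell. Tmem176b was at 50.8 and 43.8 FPKM under wild type and at 12.6 and 13.6 under Sema6D-/-. The mean was 3.61-fold lower, with a difference of -1.77 ± 0.09 (SE, adjusted p = 0.000987, limma). Tmem176a was at 22.6 and 17.5 FPKM against 3.47 and 3.30, a mean 5.91-fold lower and a difference of -2.25 ± 0.13 (SE, adjusted p = 0.00147, limma). Both Sema6D-/- libraries lay below both wild type libraries for each. The pair, like the other lists, was chosen with earlier results of these data known, so its calls are not independent support for the differences of the members. They lie on chromosome 6, away from the Ms4a cluster, and overlap by 578 bases on opposite strands, so reads in that overlap cannot be assigned. Both passed with any 1 library left out (highest adjusted p = 0.0275) and neither passed without the filter (highest adjusted p = 0.101). The marker sums of granulocytes and of mast cells or basophils were higher in the same Sema6D-/- libraries, although Gata2 of the latter list was lower. The dendritic cell sum, nearly all of it Itgax, was lower there, at 404 and 410 FPKM under wild type against 306 and 321. The macrophage sum was also lower, at 5888 and 5599 FPKM against 5269 and 5302. The part of these cell types in the Ms4a and Tmem176 levels was not tested.

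Genes beside the cluster passed about as often as all genes did. Of 17 such genes, 13.03 to 825 kb from its ends, 12 were tested, 1 was lower and 0 were higher, against 4.91% lower and 4.8% higher of all genes tested. Their median difference was -0.02. The gene that fell was Stx3, a syntaxin of membrane fusion, at 24.8 and 25.4 FPKM against 16.1 and 17.8 (difference -0.54 ± 0.07, SE, adjusted p = 0.0123, limma). It lies 134 kb past the cluster and lost its call without wild type replicate 2 or Sema6D-/- replicate 1 (highest adjusted p = 0.0932). Ccdc86, the nearest tested gene on the other side, was at 16.9 and 15.1 against 13.3 and 13.8 FPKM (adjusted p = 0.149, limma). Inside the cluster, the non-coding gene AW112010, named after its values were seen, was at 55.5 and 50.3 against 31.6 and 31.3 FPKM. Its difference was -0.73 ± 0.06 (SE, adjusted p = 0.00444, limma), and it did not pass without Sema6D-/- replicate 1 (adjusted p = 0.0558).

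Among genes whose products work with MS4A proteins, Trem2, Tyrobp and Adam10 passed as higher. Of 12 such genes, 11 were tested, 3 were higher and 0 lower, with a median difference of 0.11. Over all genes tested, 4.8% were higher and 4.91% lower, so 0 lower of 11 is near the background. Nothing is read from the 3 higher, since the list was chosen with earlier results of these data known. Syk, Card9, Fcer1g, Nlrp3, Pycard and Casp1 were also on it, and none of them passed. Trem2, a lipid-sensing receptor whose shedding MS4A4A is known to affect, rose from 653 and 728 to 1149 and 1116 FPKM (difference 0.71 ± 0.06, SE, adjusted p = 0.00496, limma). Its adaptor Tyrobp rose from 2758 and 2884 to 3417 and 3334 FPKM (adjusted p = 0.0429), and Adam10, a protease that sheds TREM2, from 44.2 and 48.0 to 57.71 and 57.74 (adjusted p = 0.0295). These calls were not equally firm. Trem2 lost its call without Sema6D-/- replicate 1 (adjusted p = 0.067). Adam10 lost it when wild type replicate 1, Sema6D-/- replicate 1 or Sema6D-/- replicate 2 was removed (highest adjusted p = 0.179), and Tyrobp without any 1 library (highest adjusted p = 0.275). Clec7a, the dectin-1 gene, was at 583 and 565 against 615 and 625 FPKM (adjusted p = 0.193). Adam17, a second protease of TREM2, was at 85.0 and 88.9 against 76.1 and 73.1 (adjusted p = 0.0557).

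**Figure D4:**
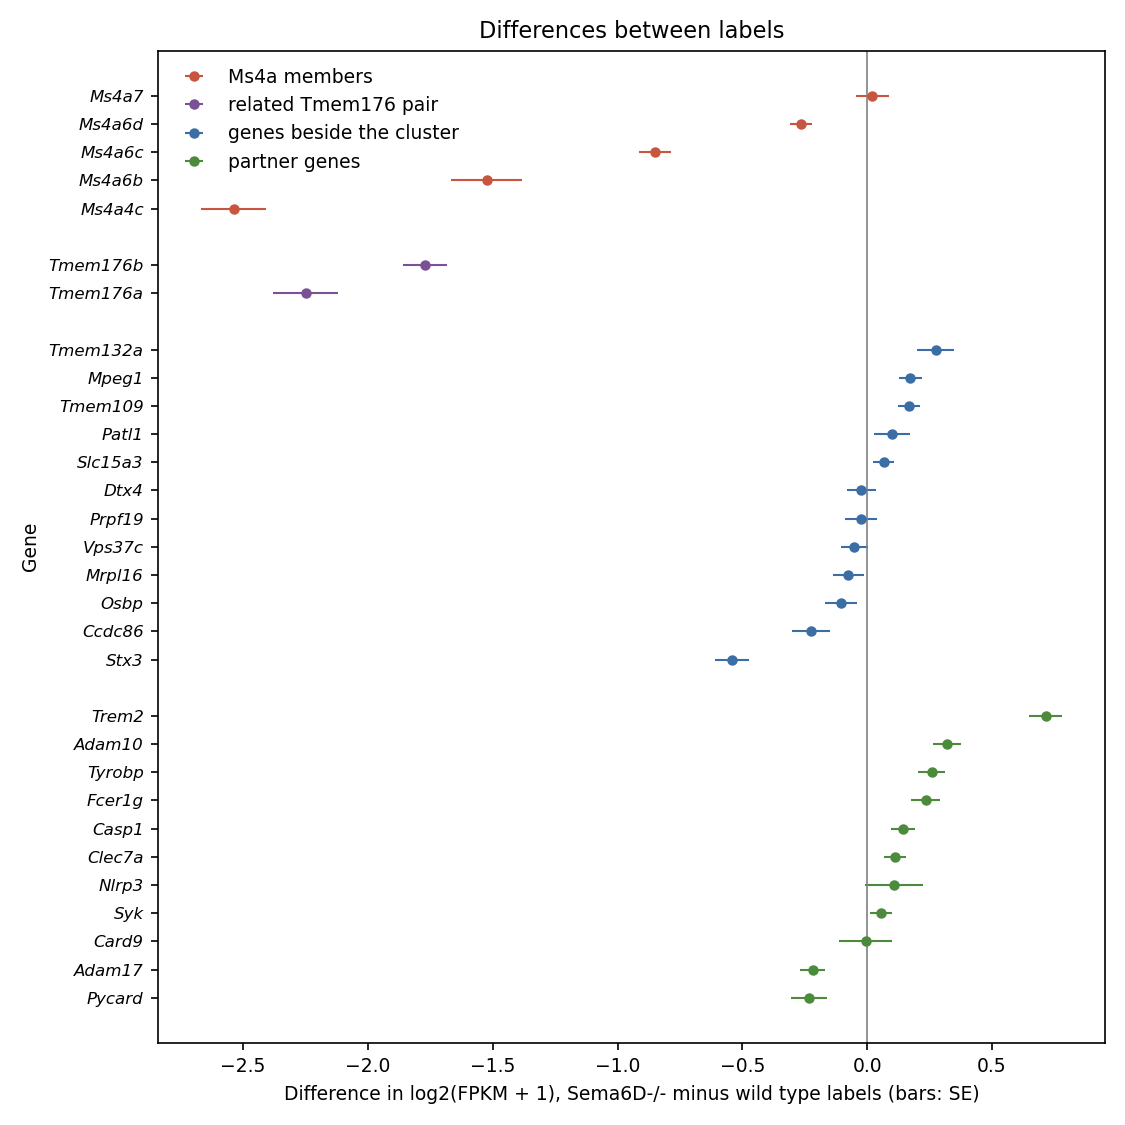
Differences in log2(FPKM + 1), Sema6D-/- minus wild type labels, with SE bars, for each tested gene of 4 lists. The Ms4a members spread from -2.54 to 0.02, the Tmem176 pair lies at -2.25 and -1.77, and the genes beside the cluster lie between -0.54 and 0.28.

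Finally, the tested genes with the pattern nearest to each member were found. The measure was the Euclidean distance between log2(FPKM + 1) values over the 4 libraries, each gene centred on its own mean, so it also rests on the contrast between labels. For Ms4a6b the 3 nearest were Usp18 (distance 0.0812), Irf7 (0.0936) and Camk2b (0.14). For Ms4a6c they were Oas2 (0.0709), Arl5c (0.0745) and Lgals9 (0.077). Usp18, Irf7 and Oas2 are known as interferon-stimulated genes. For Ms4a4c they were Lilra6 (0.148), Edn1 (0.194) and Pira11 (0.233), and for Ms4a6d Rbm15 (0.0158), Tifab (0.0177) and Cd72 (0.0202). For Ms4a7 the nearest were Kifap3 (0.0124), Ip6k2 (0.0166) and Mbd6 (0.0175). Distances are larger for members that differ more, so they are not compared between members.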

How the data were processed

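Mouse macrophage RNA was analysed in 4 libraries, 2 per genotype label. The authors deposited FPKM values per gene symbol, made with TopHat2 2.0.13, Bowtie2 2.2.3, SAMtools 0.1.19 and Cuffnorm 2.2.1 on mm10, per the submitters' processing notes. Of the counting, the annotation, strand setting and handling of reads with several matches are not given in the sources used. Each file held 23284 symbols, of which 23259 had a value.

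The test was limma 3.58.1 under R 4.3.3, two-sided, eBayes with trend. Its input was log2(FPKM + 1) of the 10115 genes whose mean over the libraries reached 1 FPKM, with Benjamini-Hochberg adjustment over all of them and a threshold of 0.05. The fit was tested on simulated data. The members and gene lists were chosen with earlier results of these data known. Named were all members, the other Ms4a and Tmem176 genes, list genes past the threshold, and the 3 nearest genes per member. Other names were chosen after their values were seen. Depth was estimated from the FPKM worth of 1 fragment per kilobase (0.107 to 0.119) in genes with 1 GENCODE M21 transcript. Coding sequences, used because no protein table was at hand, were aligned with Biopython 1.88. RefSeq positions were not used, except for promoters. Ptgdr2, beside the cluster, was matched under its older symbol Gpr44.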

Additional observations from a re-analysis of the deposited data

How the results depend on the processing

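In 12 alternatives, 0.1 or 5 was added before the log, the filter was dropped or raised to 5 FPKM, values were rescaled by median of ratios or by quantile normalization, eBayes was run without trend, a replicate block was added, or 1 library was left out. Without the filter, 0 members, 0 other family genes, 0 genes beside the cluster and 0 partner genes passed. The number of higher partner genes fell from 3 to 1 with eBayes without trend and to 1 with the replicate block. With 1 library left out it ranged from 0 to 2, the number of lower genes beside the cluster from 0 to 1, the number of lower members was 3 each time and that of other family genes 2. Ms4a4c, Ms4a6b, Ms4a6c, Tmem176a and Tmem176b were lower under all 12 alternatives and lost their calls only without the filter, where 23259 genes were tested. Ms4a6d was lower under all 12 and past the threshold in 5. Ms4a7 changed sign after quantile normalization (-0.0933), and with 1 library left out it ranged from -0.0639 (without Sema6D-/- replicate 1) to 0.105. Over all genes, 497 passed as lower and 486 as higher, against 99 and 115 without the filter, 327 and 261 with eBayes without trend, and 337 and 300 with the replicate block. With 1 library left out, the lower genes numbered 87 to 290 and the higher 72 to 276, both fewest without Sema6D-/- replicate 1. Beyond the number of genes or libraries tested, the cause was not tested. The replicate block took the title numbers, which no label ties to a shared mouse or day. Deviations of same-numbered libraries had r = -0.02 over genes. Where a label is left with 1 library, it is assumed to vary like the other. With about 19 and 27 fragments for Ms4a4c under Sema6D-/-, its fold is loosely set.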
